A study of Rattus norvegicus with 9 samples.

Results

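The genes described here encode 3 linked systems of vasoactive peptides: the kinin receptors Bdkrb1 and Bdkrb2, the angiotensin genes Agt, Ace and Agtr1a, and the endothelin genes Edn1, Ece1, Ednra and Ednrb. They were taken by symbol from a table of read counts, in which all 9 symbols had a row among 17327. The symbols were chosen by a list written with fold changes of these same samples known, among them the large difference in Bdkrb2 with phenylephrine, and the list has no threshold. Levels, fold changes and calls of the 9 genes are therefore given as a description, with no p-value.

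RNA was sequenced from ventricular myocytes isolated from neonatal rats and kept in primary culture. Cells received 50 µM phenylephrine, an alpha-adrenergic agonist, for 48 hours, 10 nM insulin-like growth factor 1 (IGF1) for 48 hours, or vehicle, with 3 samples in each group. No genetic change, strain or further agent is given for any group. Primary cultures of this kind hold some cells other than myocytes. Nothing in the labels ties the 3 samples of a group to separate isolations or litters, so the spread between them, which is all that the p-values measure, may be technical.

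Kinins, angiotensin II and endothelin-1 are short peptides cut from larger precursors by proteases, and all act through G protein-coupled receptors that can engage Gq and phospholipase C. In the heart and vessels they set vessel tone, and angiotensin II and endothelin-1 are classical stimuli of myocyte hypertrophy in culture. Angiotensin-converting enzyme, the product of Ace, links both the kinin and the angiotensin system: it makes angiotensin II and breaks down bradykinin.

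RefSeq promoter windows on the GRCr8 build, from 250 bases before to 50 after the listed start site, matched 7 of the 9 genes by symbol. No window was matched for Bdkrb2 or Agt. The windows of 4 genes are printed for the contrast between their genes. Edn1 and Ace were called lower with IGF1 and not with phenylephrine, while Agtr1a and Ednra, like Ece1, were called lower with both. The windows are chr17:22666638-22666937 on the minus strand, chr10:91409879-91410178 on the plus strand, chr17:34435383-34435682 on the minus strand and chr19:47137674-47137973 on the plus strand, each read 5′ to 3′ on the gene's strand. Capitals mark the bases of 5 motifs searched on both strands. The motif of AP-1 was searched as TGANTCA, the short CRE core as TGACG, that of TEAD factors as GGAATG, that of GATA factors as AGATAA, and the SRF CArG box by its usual pattern.
Edn1: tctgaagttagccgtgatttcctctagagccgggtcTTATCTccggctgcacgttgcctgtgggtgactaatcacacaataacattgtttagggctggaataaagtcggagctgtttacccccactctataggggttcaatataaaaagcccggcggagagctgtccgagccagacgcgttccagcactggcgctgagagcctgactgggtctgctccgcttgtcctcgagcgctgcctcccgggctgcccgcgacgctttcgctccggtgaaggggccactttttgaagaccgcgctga
Ace: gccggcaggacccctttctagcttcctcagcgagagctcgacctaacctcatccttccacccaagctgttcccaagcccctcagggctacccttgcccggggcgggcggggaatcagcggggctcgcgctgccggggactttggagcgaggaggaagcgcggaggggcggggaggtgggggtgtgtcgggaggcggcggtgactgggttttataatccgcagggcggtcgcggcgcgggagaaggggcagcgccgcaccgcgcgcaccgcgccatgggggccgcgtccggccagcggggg
Agtr1a: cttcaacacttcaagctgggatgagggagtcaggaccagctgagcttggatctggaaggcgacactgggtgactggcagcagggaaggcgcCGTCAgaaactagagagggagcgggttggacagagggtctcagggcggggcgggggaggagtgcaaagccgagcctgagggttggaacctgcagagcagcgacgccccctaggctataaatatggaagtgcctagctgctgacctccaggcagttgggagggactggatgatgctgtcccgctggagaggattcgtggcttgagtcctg
Ednra: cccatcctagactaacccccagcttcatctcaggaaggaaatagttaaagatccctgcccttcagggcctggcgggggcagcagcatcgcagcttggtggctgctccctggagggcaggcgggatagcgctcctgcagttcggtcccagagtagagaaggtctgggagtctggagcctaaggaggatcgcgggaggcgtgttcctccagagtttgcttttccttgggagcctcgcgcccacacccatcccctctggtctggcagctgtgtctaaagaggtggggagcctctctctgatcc
Edn1 held 1 GATA match, on the reverse strand and starting 214 bases before the listed start site. Agtr1a held 1 short CRE core, on the reverse strand and starting 159 bases before its start site. Ace and Ednra held none of the 5, and neither did Bdkrb1 and Ece1, while Ednrb held 1 short CRE core. Of 33469 windows of the same length, 11.6% held the GATA letters, 21.2% the short CRE core, 14.2% the TEAD letters, 7.33% AP-1 and 1.64% the CArG box. These are matches of letters in 300 bases and not tested sites.

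Total counts ran from 31274396 to 48505265 per sample, and a level of 1 CPM (count per 1e6 counts, after scaling by normalization factors) rested on 29.1 to 51.6 reads. All 10 cardiomyocyte markers looked up were detected, with summed levels of 59000 to 59700 CPM with phenylephrine, 50700 to 63500 CPM with IGF1 and 46300 to 50100 CPM with vehicle. The growth markers Nppa, Nppb and Acta1 stood at 7790 to 8250, 1600 to 1670 and 3020 to 3320 CPM with phenylephrine, against 652 to 739, 135 to 154 and 334 to 368 CPM with vehicle. In such bulk samples, fewer cells of a type and less RNA per cell cannot be told apart. IGF1 replicate 1 stood apart from the other IGF1 samples. Its Nppa level was 2850 CPM, against 591 and 630 CPM in IGF1 replicates 2 and 3. Nppb was 1030 CPM there, against 119 and 121 CPM in those replicates. Acta1 was 6020 CPM, above every phenylephrine sample, against 1270 and 1320 CPM. Of 1214 genes whose means in phenylephrine and in IGF1 replicates 2 and 3 were at least 2-fold apart, 973 (80.1%) lay between those means in IGF1 replicate 1. The genes were picked by a mean that leaves replicate 1 out. The same share was not computed with replicate 2 or 3 left out, so the 80.1% has no baseline. Fold changes of the 9 genes and counts of calls that use this sample are given with and without it.

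A gene is called higher or lower where its adjusted p was under 0.05 in edgeR's quasi-likelihood test over all 11873 genes tested, and 8 of the 9 genes could be tested. With phenylephrine against vehicle, 1 of the 8 was called higher (Bdkrb2) and 3 lower (Agtr1a, Ednra and Ece1), where 27.9% of all genes tested were called higher and 28.9% lower. With IGF1 against vehicle, 0 were called higher and 5 lower (Ace, Agtr1a, Edn1, Ednra and Ece1), where 24.7% and 23.4% of all genes were. The count of higher genes with IGF1 was also 0 at an unadjusted p under 0.05 in edgeR, and DESeq2 called 0 higher but gave no p for Bdkrb2. With phenylephrine against IGF1, 3 were called higher (Bdkrb2, Ace and Edn1) and 1 lower (Ednra), where 27.1% of all genes were called in either direction alone.

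Without IGF1 replicate 1, Edn1 joined the genes higher with phenylephrine and Bdkrb2 those lower with IGF1. The counts were then 2 higher and 3 lower with phenylephrine (31.2% and 32.2% of all genes), 0 and 6 with IGF1 (27.4% and 26.6%), and 3 and 1 between the stimuli (30.4% and 30.2%). The samples of the groups did not overlap for 6 of the 8 genes with phenylephrine against vehicle, 5 with IGF1 against vehicle and 4 between the stimuli. Over all genes these shares were 66.6%, 56.5% and 58.8%. The median log2 fold change of the 8 was -0.07 with phenylephrine and -0.30 with IGF1, beside -0.03 and 0 for all genes tested. Without IGF1 replicate 1 the median with IGF1 was -0.53, beside -0.01 for all genes. Both comparisons use the same vehicle samples. Since the list was written with these contrasts known, nothing is read from the counts.

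Among the kinin receptors, Bdkrb2 was high with phenylephrine and low with vehicle. Bdkrb2 encodes the B2 receptor, the constitutive receptor for bradykinin. Its level was 59.5, 66.0 and 63.8 CPM with phenylephrine, 14.7, 0.632 and 1.11 CPM with IGF1, and 1.70, 1.95 and 1.84 CPM with vehicle. All phenylephrine samples lay far above all vehicle samples, and within each of these groups the samples were close together. The IGF1 group was split, with replicate 1 between the phenylephrine and vehicle levels and replicates 2 and 3 below every vehicle sample.

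The counts behind these levels were 1731, 2065 and 1975 reads with phenylephrine, 448, 28 and 53 reads with IGF1, and 84, 80 and 95 reads with vehicle. Against vehicle, Bdkrb2 was 34.5-fold higher with phenylephrine (log2 5.11, SE 1.0), and no other gene of the 11873 tested had a larger fitted rise in that comparison. The SE was 0.089 without IGF1 replicate 1 and the log2 fold change again 5.11, since the fit shares its estimate of spread over all groups. IGF1 replicate 1 alone was 8.05 times the vehicle mean, whereas replicates 2 and 3 were 0.345 and 0.606 times that mean.

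With IGF1, the direction for Bdkrb2 depended on replicate 1. Over all samples the log2 fold change against vehicle was 1.41 (SE 1.2) and was not called. Without IGF1 replicate 1 it was -1.05 (SE 0.18) and was called lower. Phenylephrine against IGF1 gave 13.0-fold higher Bdkrb2 over all samples (log2 3.70, SE 0.92) and 71.5-fold without IGF1 replicate 1 (log2 6.16, SE 0.12). Phenylephrine samples still averaged 4.28 times the level in IGF1 replicate 1.

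Bdkrb1 encodes the B1 receptor, which binds kinins that have lost their last arginine and is known to be induced by inflammation. It was close to undetected in every group. The row held 1, 0 and 1 reads with phenylephrine, 0, 1 and 0 reads with IGF1, and 3, 3 and 0 reads with vehicle. Summed over a group this was 0.022 CPM with phenylephrine, 0.0082 CPM with IGF1 and 0.042 CPM with vehicle. The exact Poisson 95% intervals were 0.0027 to 0.079, 0.00021 to 0.046 and 0.016 to 0.092 CPM and cover counting error only. The intervals overlap, and a difference between groups was not detectable at this depth. Bdkrb1 failed the filter on low counts and is the gene of the 9 that was not tested.

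**Figure D1:**
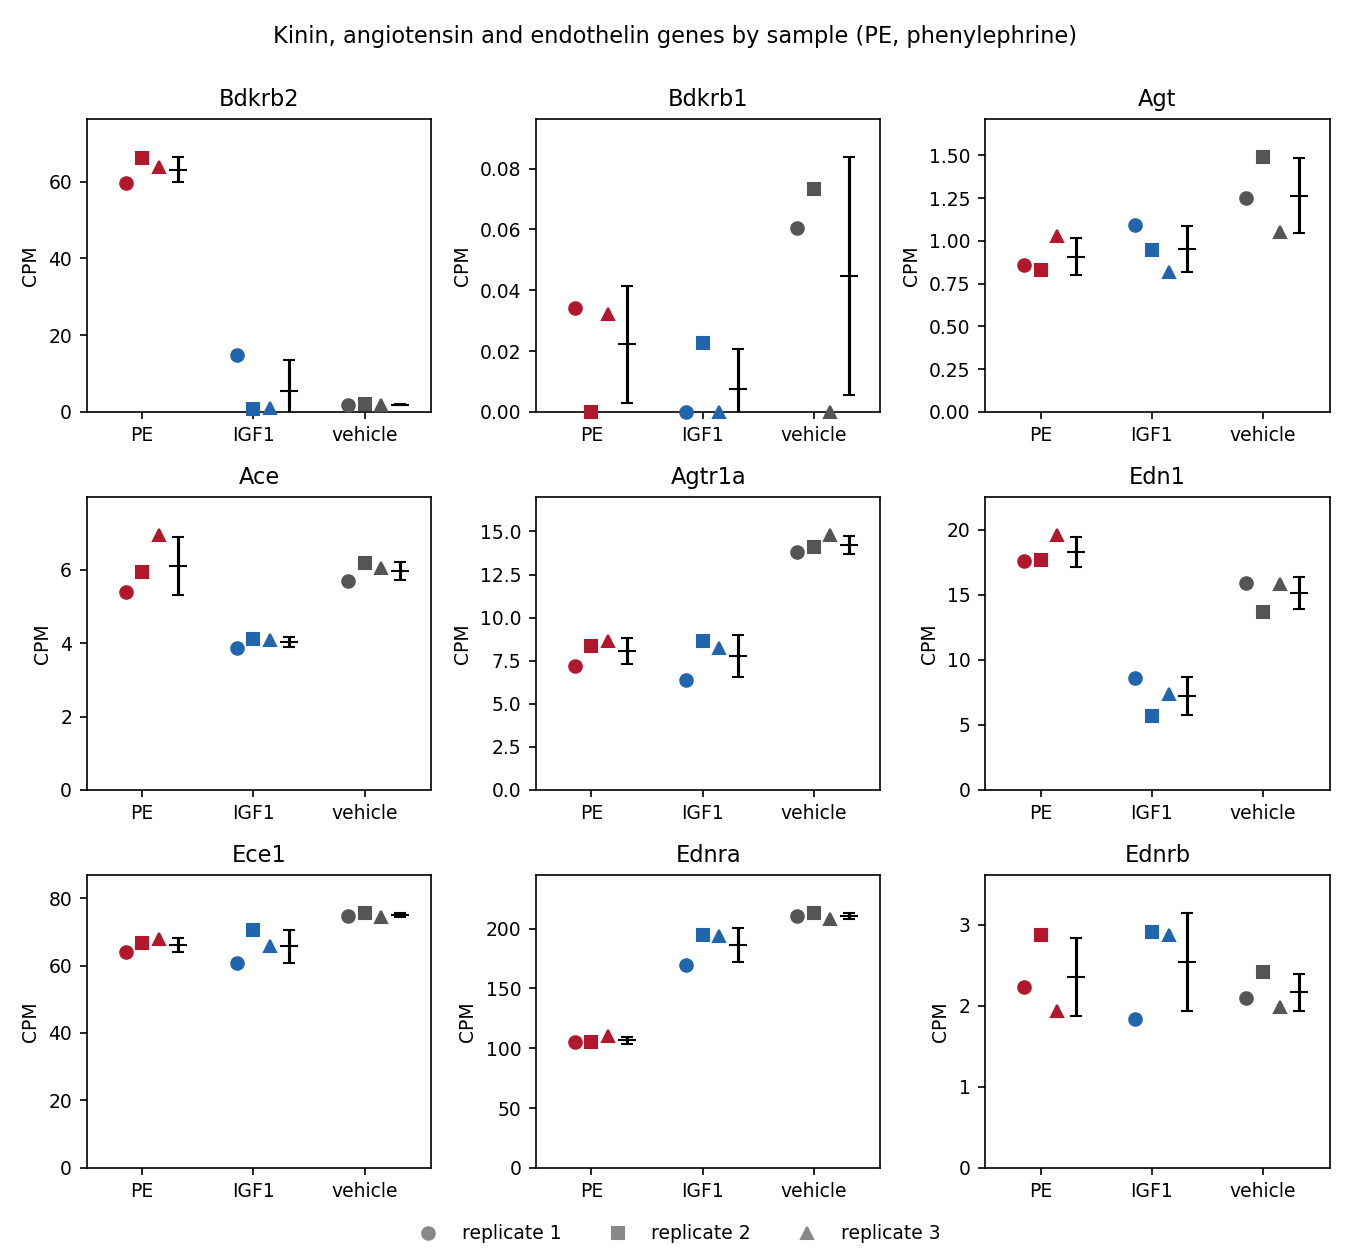
Levels of the 9 genes in each sample, in CPM on linear axes that start at 0 and differ between panels, for phenylephrine (PE), IGF1 and vehicle. Points are samples, with a shape for each replicate number, and bars are the mean and SD of 3 samples, cut off at 0. Bdkrb2 lies at 59.5 to 66.0 CPM with phenylephrine, IGF1 replicate 1 lies at 14.7 CPM, and Bdkrb1 rests on at most 3 reads in a sample.

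In the angiotensin system, the receptor gene was lower with both stimuli and the converting enzyme gene was called lower with IGF1. Agtr1a encodes the main type 1 angiotensin II receptor of rodents. Its near copy Agtr1b had 0 to 5 reads in a sample, and no source used here says how reads that fit both genes were counted. The Agtr1a level was 7.18, 8.35 and 8.63 CPM with phenylephrine, 6.39, 8.67 and 8.24 CPM with IGF1, and 13.8, 14.1 and 14.8 CPM with vehicle. Every treated sample lay below every vehicle sample, and the phenylephrine and IGF1 ranges overlapped. Agtr1a was 1.76-fold lower with phenylephrine (log2 -0.82, SE 0.11) and 1.82-fold lower with IGF1 (log2 -0.86, SE 0.11), both past the threshold. Without IGF1 replicate 1 the fall with IGF1 was 1.68-fold. Phenylephrine against IGF1 gave log2 0.04 (SE 0.12), or -0.07 without that sample, and was not called.

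Ace was 5.39, 5.95 and 6.95 CPM with phenylephrine, 3.88, 4.11 and 4.09 CPM with IGF1, and 5.70, 6.18 and 6.05 CPM with vehicle. The 3 IGF1 samples lay below all others, while the phenylephrine samples lay on both sides of the vehicle samples. Ace fell 1.48-fold with IGF1 (log2 -0.57, SE 0.12; 1.46-fold without IGF1 replicate 1). It was 1.51-fold higher with phenylephrine than with IGF1 (log2 0.60, SE 0.12, and 0.57 without that sample). Against vehicle, phenylephrine gave log2 0.03 (SE 0.12), which did not pass.

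Agt encodes angiotensinogen, the precursor of angiotensin. Its row held 25, 26 and 32 reads with phenylephrine, 33, 42 and 39 reads with IGF1, and 62, 61 and 54 reads with vehicle. The levels were 0.859, 0.831 and 1.03 CPM with phenylephrine, 1.09, 0.948 and 0.817 CPM with IGF1, and 1.25, 1.49 and 1.05 CPM with vehicle. The phenylephrine samples were all below the vehicle samples by a narrow gap, and the IGF1 samples overlapped both. Log2 fold changes against vehicle were -0.47 (SE 0.26) with phenylephrine and -0.42 (SE 0.25) with IGF1, or -0.51 (SE 0.31) without IGF1 replicate 1. None passed the threshold at this depth.

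The order of levels thus differed by gene. Agtr1a was highest with vehicle, and the stimuli did not differ beyond their spread. Ace was lowest with IGF1, and phenylephrine and vehicle did not differ beyond their spread. For Agt, no neighbouring pair in the order was called.

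In the endothelin system, the ligand and the receptor genes took different courses. Edn1 encodes the precursor of endothelin-1. Its level was 17.6, 17.7 and 19.6 CPM with phenylephrine, 8.62, 5.69 and 7.40 CPM with IGF1, and 15.9, 13.7 and 15.8 CPM with vehicle. The 3 groups did not overlap, with phenylephrine highest and IGF1 lowest. Edn1 fell 2.11-fold with IGF1 (log2 -1.08, SE 0.12), and the fall was 2.31-fold without IGF1 replicate 1, the highest of the IGF1 samples. It was 2.55-fold higher with phenylephrine than with IGF1 (log2 1.35, SE 0.12), and 2.79-fold without that sample.

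The step between phenylephrine and vehicle was small for Edn1, at 1.21-fold (log2 0.27, SE 0.12), and missed the threshold over all samples. It passed without IGF1 replicate 1 (log2 0.27, SE 0.085) or IGF1 replicate 2 (log2 0.26), samples outside that comparison which enter the shared spread. With the phenylephrine and vehicle groups fitted alone it passed at log2 0.28. When only library sizes were used for scaling it was 0.08, and the median of all genes was then -0.22 in place of -0.03.

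Ednra encodes the type A endothelin receptor, the main receptor for endothelin-1 on myocytes and smooth muscle. Its level was 105, 105 and 110 CPM with phenylephrine, 170, 195 and 194 CPM with IGF1, and 211, 213 and 208 CPM with vehicle. The 3 groups did not overlap, and the phenylephrine samples were far below the rest. Ednra fell 1.97-fold with phenylephrine (log2 -0.98, SE 0.051). The counts there were 3070, 3290 and 3418 reads, against 10426, 8722 and 10746 reads with vehicle. With IGF1 it fell 1.13-fold (log2 -0.18, SE 0.050), and 1.08-fold (log2 -0.11, SE 0.033) without IGF1 replicate 1, which lay lower than the other IGF1 samples. Phenylephrine against IGF1 gave a 1.74-fold lower level (log2 -0.80, SE 0.051), and 1.82-fold without that sample.

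Ednrb encodes the type B receptor, which on endothelial cells promotes vessel relaxation and clears endothelin. Its level was 2.23, 2.88 and 1.94 CPM with phenylephrine, 1.84, 2.91 and 2.87 CPM with IGF1, and 2.10, 2.42 and 1.98 CPM with vehicle. The groups overlapped, and no comparison passed. The log2 fold changes were 0.12 (SE 0.22) with phenylephrine and 0.25 (SE 0.21) with IGF1 against vehicle, or 0.42 (SE 0.20) without IGF1 replicate 1.

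Ece1 encodes the enzyme that cuts big endothelin to its active form. Its level was 63.9, 66.7 and 67.8 CPM with phenylephrine, 60.8, 70.4 and 65.9 CPM with IGF1, and 74.8, 75.6 and 74.4 CPM with vehicle. All treated samples lay below all vehicle samples. The falls were small, at 1.13-fold with phenylephrine (log2 -0.18, SE 0.052) and 1.14-fold with IGF1 (log2 -0.19, SE 0.051; 1.10-fold without IGF1 replicate 1). Both passed the threshold, and phenylephrine against IGF1 gave log2 0.01 (SE 0.052), or -0.04 without that sample.

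**Figure D2:**
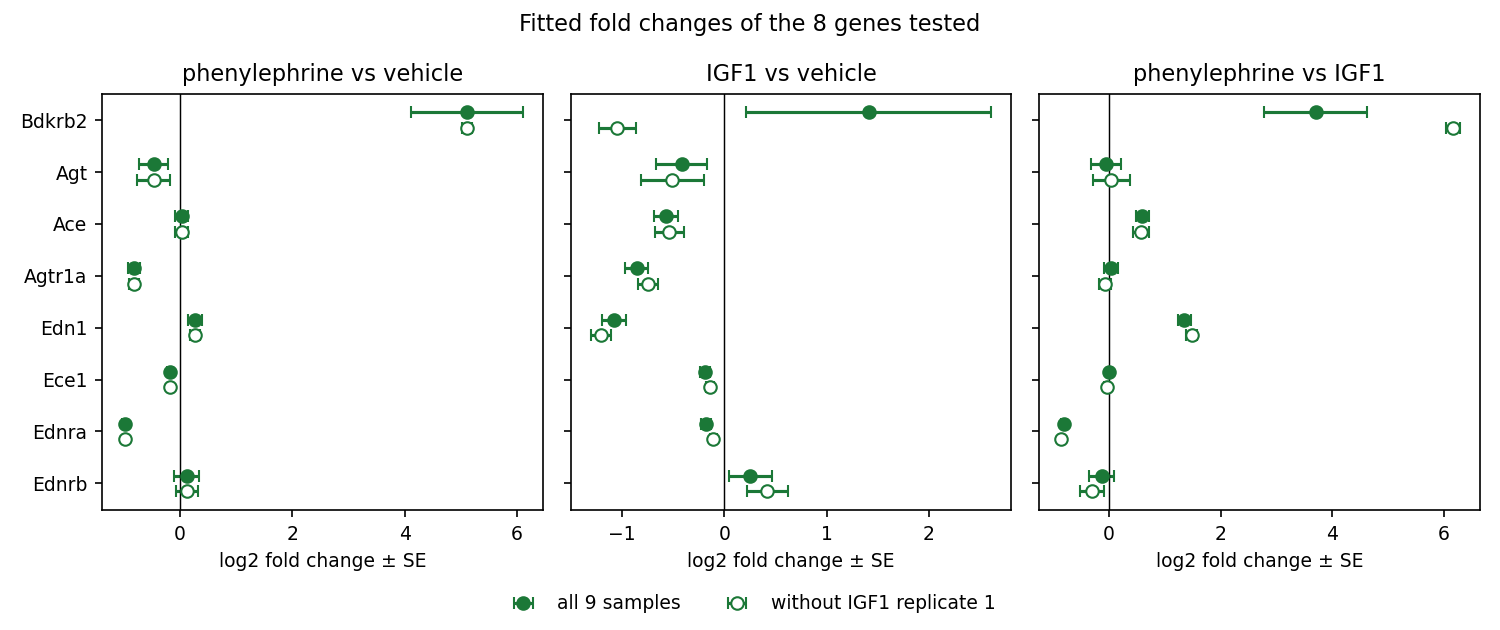
Fitted log2 fold changes (horizontal axis, with SE bars) of the 8 genes tested, in 3 comparisons whose axes differ in range. Filled points are from all 9 samples and open points from the fit without IGF1 replicate 1. Bdkrb2 moves from 1.41 to -1.05 between these fits for IGF1 against vehicle, while the other 7 genes keep their direction in that comparison.

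**Figure D3:**
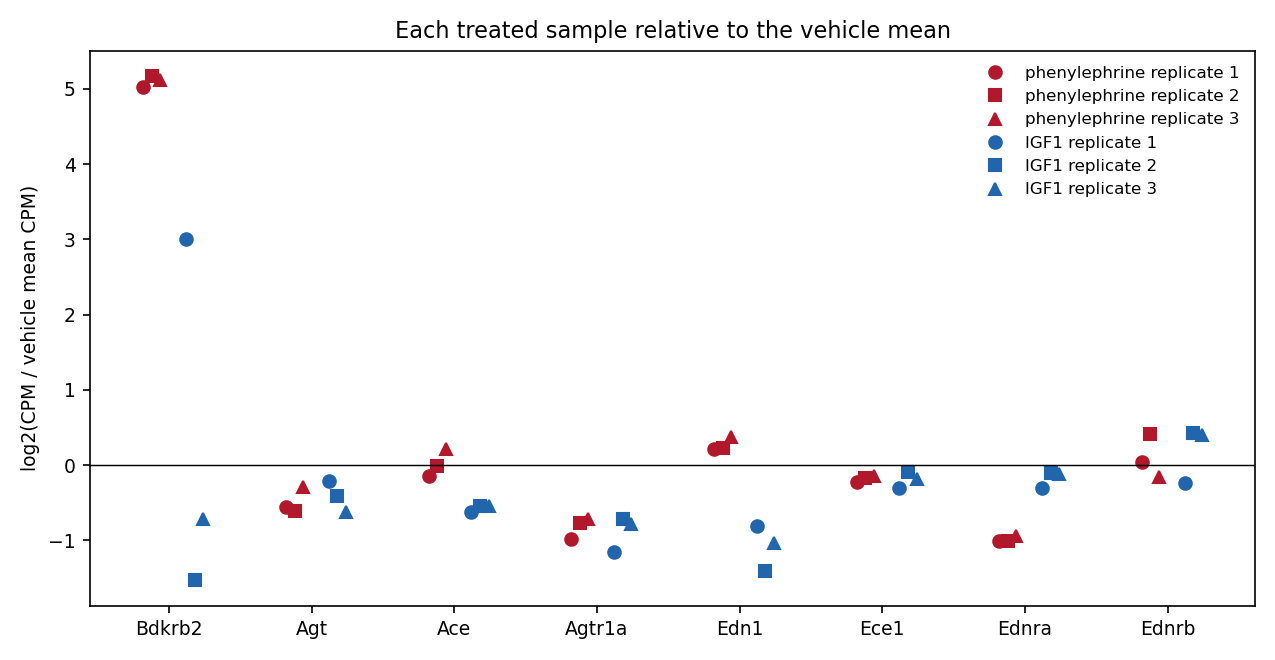
Level of each treated sample divided by the mean of the 3 vehicle samples, on a log2 axis where 0 is the vehicle mean, for the 8 genes tested. Red points are phenylephrine and blue points IGF1, with a shape for each replicate number. For Bdkrb2, IGF1 replicate 1 lies at 8.05 times the vehicle mean, and IGF1 replicates 2 and 3 lie at 0.345 and 0.606 times.

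IGF1 replicate 1 lay between the phenylephrine mean and the mean of IGF1 replicates 2 and 3 for Bdkrb2, Edn1 and Ednra. For Agt, Agtr1a, Ednrb and Ece1 it lay beyond the phenylephrine mean, and the means themselves were close for Agt, Agtr1a and Ece1, at 0.04, -0.07 and -0.04 apart on the log2 scale. Ace went the other way: phenylephrine stood 0.56 above IGF1 replicates 2 and 3 on the log2 scale, and replicate 1 stood at -0.08.

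Markers of other cell types were set beside these levels, since endothelial cells also express Edn1, Ace and Ece1, and fibroblasts and smooth muscle cells express Ednra and Agtr1a. Summed over 10 endothelial markers, the level was 114 to 117 CPM with IGF1, against 165 to 185 CPM with vehicle. Eng had the largest level of the 10, at means of 83.1 CPM with IGF1, 131 CPM with phenylephrine and 104 CPM with vehicle. With IGF1, 6 of the 9 endothelial markers tested were lower and none higher, where 23.4% of all genes were called lower and 24.7% higher. The count of higher markers was also 0 at an unadjusted p under 0.05 in edgeR, and 0 were called by DESeq2. The VEGF receptor gene Kdr fell by 1.76 on the log2 scale, the angiopoietin receptor gene Tek by 0.85 and the endothelial cadherin gene Cdh5 by 1.13 (edgeR adjusted p = 1.2e-06, 1.8e-05 and 0.0013), and all 6 were called without IGF1 replicate 1 too. None of the 10 was at 0 in all samples, but Cldn5, a tight junction gene, was at 0 in phenylephrine replicates 1 and 2. The part of these markers in the lower Edn1 and Ace with IGF1 was not tested.

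With phenylephrine the endothelial sum was 186 to 200 CPM, with 2 markers higher and 1 lower of 9 against vehicle, where 27.9% and 28.9% of all genes were called. This became 3 lower (Kdr, Pecam1 and Tek) without IGF1 replicate 1, where 32.2% of all genes were called lower. Against IGF1, 5 were higher and 0 lower, where 27.1% of all genes were called each way. Of these markers, 0 were lower at an unadjusted p under 0.05 in edgeR or called lower by DESeq2. Fibroblast markers summed to 4720 to 4820 CPM with phenylephrine, 5960 to 6890 CPM with IGF1 and 5080 to 6080 CPM with vehicle. Most of that sum came from the collagen genes Col1a1 and Col3a1. Their means were 3080 and 1070 CPM with phenylephrine, 3360 and 2110 CPM with IGF1, and 3460 and 1440 CPM with vehicle. Of 9 tested, 1 was higher and 4 lower with phenylephrine, and 4 were higher and 1 lower with IGF1. Smooth muscle and pericyte markers summed to 2830 to 2900 CPM with phenylephrine, 1870 to 2420 CPM with IGF1 and 1990 to 2100 CPM with vehicle. Acta2 and Tagln had the largest levels, at means of 1200 and 886 CPM with phenylephrine and 806 and 705 CPM with vehicle. Of 10 tested, 4 were higher with phenylephrine (Acta2, Tagln, Cnn1 and Cspg4) and 3 lower (Myh11, Abcc9 and Kcnj8). With IGF1 1 was higher and 2 lower, or 3 and 3 without IGF1 replicate 1. The shares of all genes called are those above, and with IGF1 24.7% higher and 23.4% lower (27.4% and 26.6% without IGF1 replicate 1). No gene of either list was at 0 in all samples. The part of either list in the lower Ednra and Agtr1a was not tested. Macrophage and leukocyte, epicardial and Schwann cell markers summed to 66.9 to 85.2, 43.9 to 45.9 and 7.99 to 10.9 CPM with phenylephrine. With IGF1 they summed to 67.2 to 73.4, 35.8 to 42.5 and 10.7 to 11.4 CPM. With vehicle they summed to 72.8 to 84.7, 44.1 to 48.8 and 14.3 to 15.2 CPM.

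**Figure D4:**
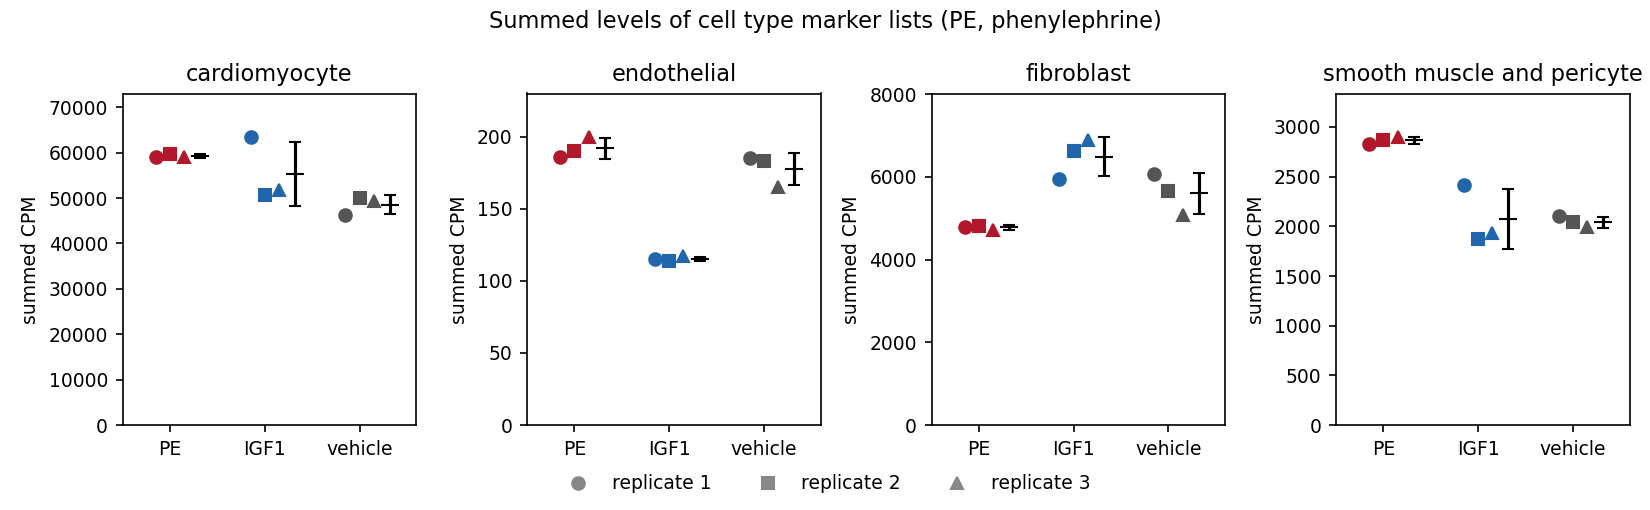
Summed CPM of 4 lists of cell type markers in each sample, on linear axes that start at 0, for phenylephrine (PE), IGF1 and vehicle. Points are samples, with a shape for each replicate number, and bars are the mean and SD of 3 samples. The endothelial sum is 114 to 117 CPM in the IGF1 samples and 165 to 200 CPM in the other samples. Eng has the largest level in it. Col1a1 and Col3a1 have the largest levels in the fibroblast sum, and Acta2 and Tagln in the smooth muscle and pericyte sum.

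Genes whose pattern over the 9 samples was most like that of a member were found by Pearson correlation of log2 CPM among 9301 genes. The measure is blind to the size of a change, and its points share the 3 groups and their libraries. For Bdkrb2 the 3 most alike were Pcbp4, Pdcl3 and Hbegf (r = 0.999, 0.998 and 0.997, and 0.999, 0.999 and 0.997 without IGF1 replicate 1). Hbegf, which encodes a ligand of the EGF receptor, stood at 161, 159 and 165 CPM with phenylephrine, 82.8, 19.2 and 20.5 CPM with IGF1, and 31.3, 29.2 and 31.5 CPM with vehicle. Picked for its likeness over these same samples, it shows the same split of the IGF1 group. Replicate 1 was high and replicates 2 and 3 were below vehicle. Pdcl3 spanned far less, from 84.2 to 86.2 CPM with phenylephrine, against 66.2 to 66.6 CPM with vehicle.

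For Ednra the genes most alike were Mtus1, Fgf13 and Podxl (r = 0.997, 0.997 and 0.996). Fgf13 stood at 32.4 to 35.8 CPM with phenylephrine, against 75.8 to 82.8 CPM with vehicle. For Edn1 they were Cdk10, Fuca1 and Parg (0.996, 0.987 and 0.986), and for Agtr1a Xpo7, Nr3c1 and Phf7 (0.991, 0.990 and 0.987). Nr3c1 encodes the glucocorticoid receptor. For Ace the closest were Dhx40 and Lrif1 (0.984 and 0.969) and for Ece1 Flrt2, Rab11fip2 and Frs2 (0.984, 0.984 and 0.978). The 2 members that passed in no comparison had looser matches, with Stk16, RGD1310852 and Klhl22 for Agt (0.938 to 0.887) and Sos1, Ago3 and Slc7a11 for Ednrb (0.972 to 0.864). Between members, r was 0.959 for Agtr1a and Ece1, 0.899 for Ace and Edn1, and -0.939 for Bdkrb2 and Ednra.

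Beyond the members, 5 lists of 88 related symbols had 86 rows in the table, of which 52 were tested. With phenylephrine 11 rose and 13 fell, where 27.9% and 28.9% of all genes did. With IGF1 7 rose and 16 fell, where 24.7% and 23.4% did, and against IGF1 phenylephrine gave 13 higher and 9 lower, where 27.1% were called each way. Without IGF1 replicate 1, 54 were tested. The counts were then 14 and 15 with phenylephrine (31.2% and 32.2% of all genes) and 7 and 14 with IGF1 (27.4% and 26.6%). Between the stimuli they were 16 and 14 (30.4% and 30.2%). The shares of all genes in this paragraph are also those beside which the counts of each list below stand. Medians over the tested genes were -0.10 with phenylephrine and -0.14 with IGF1 (log2), beside -0.03 and 0 for all genes. Of the IGF1 calls of related genes given below, that of Ece2 was lost without IGF1 replicate 1 and the others were kept.

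In the kinin list 6 of 16 genes were tested. With phenylephrine 2 rose and 1 fell, and with IGF1 1 rose and 3 fell. With IGF1 replicate 1 left out, 7 were tested, of which 3 rose and 1 fell with phenylephrine, and 1 rose and 2 fell with IGF1. The kininogen genes Kng1 and Kng1l1, which encode precursors of kinins, and the tissue kallikrein gene Klk1 had no reads in any sample. The kininogen gene Kng2 had 9, 5 and 14 reads with phenylephrine, 2, 6 and 1 reads with IGF1, and 8, 15 and 8 reads with vehicle. It was called higher with phenylephrine than with IGF1 (log2 2.01, edgeR adjusted p = 0.025), a call lost without phenylephrine replicate 1 or 3 or IGF1 replicate 3 (log2 2.01, 1.62 and 1.5). The plasma kallikrein gene Klkb1 had 2 to 8 reads in every sample and was not tested. Mme encodes neprilysin, which breaks down kinins and endothelin. It fell with both stimuli, to 12.3 ± 0.988 CPM with phenylephrine and 14.0 ± 1.73 CPM with IGF1, against 19.5 ± 1.84 CPM with vehicle (SD, n = 3 each; log2 -0.66 and -0.47; edgeR adjusted p = 6.2e-05 and 0.0012). Cpm encodes carboxypeptidase M, which removes the last arginine of kinins. It fell 2.50-fold with IGF1 (log2 -1.32, SE 0.22, edgeR adjusted p = 0.00014) and was 2.16-fold higher with phenylephrine than with IGF1. Xpnpep1, an aminopeptidase that can cut bradykinin, rose 1.37-fold with phenylephrine and 1.31-fold with IGF1 (edgeR adjusted p = 7.9e-07 and 5.6e-06). Prcp, a carboxypeptidase that cuts angiotensin II, rose 1.35-fold with phenylephrine (edgeR adjusted p = 3e-04) and was 1.57-fold higher there than with IGF1.

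In the angiotensin list, 13 of 18 genes were tested. Agtr1b and Mrgprd were among those that failed the filter, and Cma1 had no reads. With phenylephrine 3 rose and 3 fell, and with IGF1 3 rose and 3 fell, the same counts as without IGF1 replicate 1. The peptidase gene Thop1 rose 1.39-fold with phenylephrine and 1.25-fold with IGF1, and the lysosomal protease gene Ctsd fell 1.33-fold and 1.43-fold (edgeR adjusted p = 4.2e-05, 0.0014, 6.1e-07 and 8.3e-08). Atp6ap2, the prorenin receptor gene, rose 1.22-fold with phenylephrine (edgeR adjusted p = 0.0013). That call was lost at log2 0.09 when only library sizes were used for scaling. Nln fell 1.25-fold with phenylephrine, and Enpep, whose product cuts angiotensin II, fell 1.25-fold with IGF1 (edgeR adjusted p = 0.00021 and 0.00057). The receptor gene Agtr2 was at 0.384 CPM with phenylephrine, 0.602 CPM with IGF1 and 0.662 CPM with vehicle and was not called over all samples. Once IGF1 replicate 1 was left out, it was called lower with phenylephrine than with IGF1 (log2 -0.99).

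In the endothelin list, Edn2, Edn3 and Kel failed the filter, so Edn1 was the ligand gene tested. Of the 5 others tested, 2 rose and 1 fell with phenylephrine, where 27.9% and 28.9% of all genes did. With IGF1 0 rose and 4 fell, where 24.7% and 23.4% did. The count that rose was also 0 at an unadjusted p under 0.05 in edgeR, and 0 were called by DESeq2. After IGF1 replicate 1 was left out, 3 rose and 1 fell with phenylephrine, and 0 rose and 3 fell with IGF1. Furin encodes a convertase that cuts many precursors, that of endothelin-1 among them. It stood at 318 ± 6.49 CPM with phenylephrine, 169 ± 9.53 CPM with IGF1 and 261 ± 12.3 CPM with vehicle (SD, n = 3 each), the same order of groups as for Edn1. Furin fell 1.55-fold with IGF1 (log2 -0.63, SE 0.048, edgeR adjusted p = 8.4e-08) and was 1.88-fold higher with phenylephrine than with IGF1 (edgeR adjusted p = 8.3e-10). Its rise of 1.22-fold with phenylephrine (edgeR adjusted p = 0.00014) and that of Pcsk6 (1.21-fold, 0.00039) were not called when only library sizes scaled the counts (log2 0.09 and 0.08). Pcsk5, another convertase gene, fell 1.82-fold with phenylephrine (edgeR adjusted p = 1.6e-05). It was also called lower with IGF1 (log2 -0.52, edgeR adjusted p = 0.0011). Pcsk6, higher with phenylephrine, was called lower with IGF1 too (log2 -0.2, edgeR adjusted p = 0.0053). Ece2 was 1.71-fold lower with IGF1 (edgeR adjusted p = 0.026), a call lost without vehicle replicate 1 or 2 (log2 -0.75 and -0.73) or IGF1 replicate 1 or 3 (log2 -0.54 and -0.73).

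Among 16 genes of receptor coupling and desensitisation, 2 rose and 6 fell with phenylephrine, and 2 rose and 4 fell with IGF1, or 3 and 8 and then 2 and 3 without IGF1 replicate 1. The arrestin gene Arrb2, whose product helps switch such receptors off, fell 1.68-fold with phenylephrine (log2 -0.75, SE 0.11, edgeR adjusted p = 4.4e-05). The receptor kinase gene Adrbk1 rose 1.20-fold with IGF1 and 1.14-fold with phenylephrine (edgeR adjusted p = 0.0013 and 0.0083). Its phenylephrine call was lost without phenylephrine replicate 2 (log2 0.16) and with scaling by library size only (log2 0.00039). The phospholipase gene Plcb3 fell 1.32-fold with IGF1 (edgeR adjusted p = 0.00025). Plcb1 was 1.64-fold lower with phenylephrine (edgeR adjusted p = 0.025), a call lost without vehicle replicate 1 or 3 (log2 -0.67 and -0.63) or phenylephrine replicate 1 or 2 (-0.63 and -0.68). The Gq genes Gnaq and Gna11 had log2 fold changes of -0.19 and 0.15 with phenylephrine and were not called (edgeR adjusted p = 0.072 and 0.082). Both were called without IGF1 replicate 1 (-0.19 and 0.15) and with the phenylephrine and vehicle groups fitted alone (-0.18 and 0.16).

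Of 12 tested genes of other vasoactive peptides and receptors, 2 rose and 2 fell with phenylephrine, and 1 rose and 2 fell with IGF1. Leaving out IGF1 replicate 1 gave 13 tested genes, of which 2 rose and 2 fell with phenylephrine, and 1 rose and 3 fell with IGF1. Ramp3, a partner protein of the adrenomedullin receptor, stood at 7.40 ± 0.724 CPM with phenylephrine, 1.46 ± 0.218 CPM with IGF1 and 4.62 ± 0.453 CPM with vehicle (SD, n = 3 each). It rose 1.60-fold with phenylephrine and fell 3.18-fold with IGF1 (edgeR adjusted p = 0.00063 and 6.4e-07). Crhr2, a receptor for urocortins, rose 4.04-fold with IGF1 (log2 2.01, SE 0.19, edgeR adjusted p = 9.1e-07). The adrenomedullin gene Adm fell 1.66-fold with phenylephrine and Vipr2, a receptor for vasoactive intestinal peptide, fell 2.06-fold with phenylephrine and 1.97-fold with IGF1 (edgeR adjusted p = 1.4e-05, 0.0024 and 0.0036). The receptor gene Adcyap1r1 was 1.84-fold higher with phenylephrine (edgeR adjusted p = 0.012), a call lost without phenylephrine replicate 3 (log2 0.64).

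**Figure D5:**
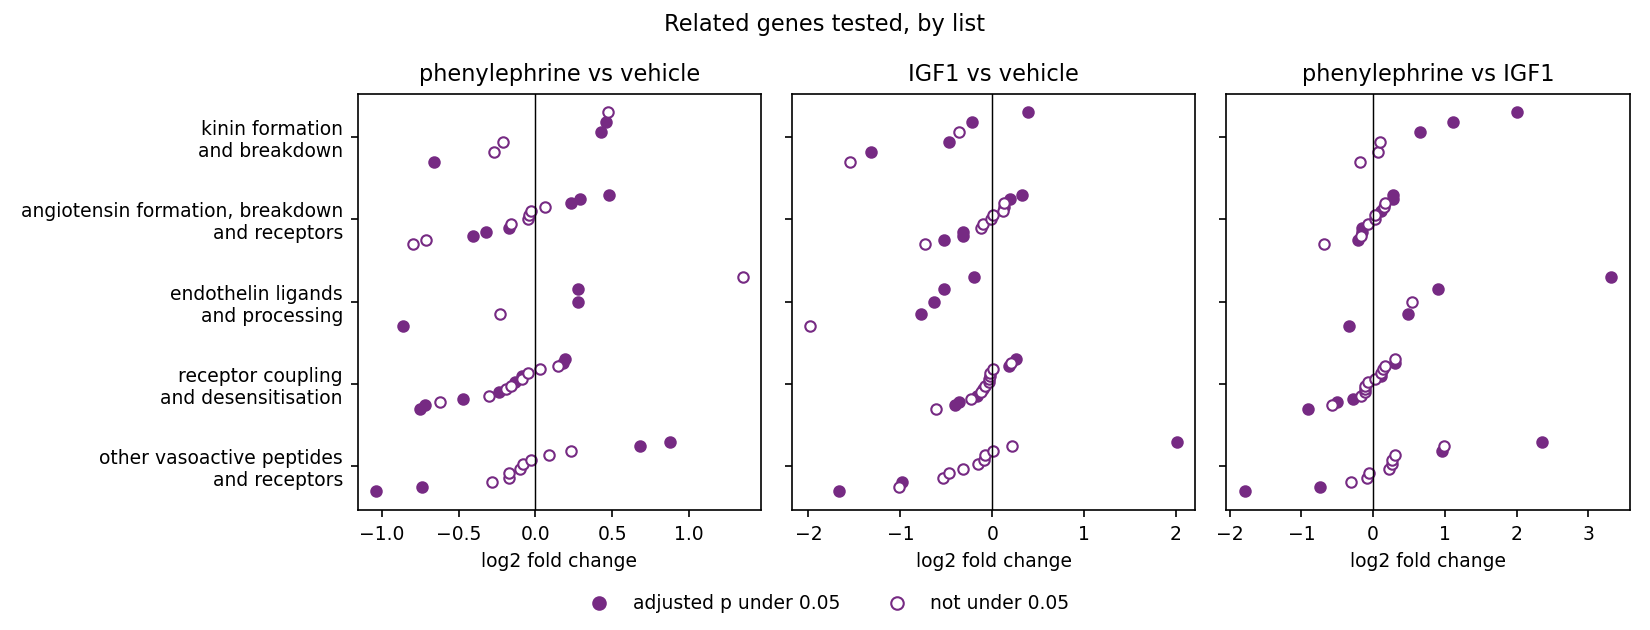
Log2 fold changes of the 52 tested related genes in 5 lists (rows), for 3 comparisons whose horizontal axes differ in range. Each point is a gene, filled where the edgeR adjusted p was under 0.05. With phenylephrine 11 genes are filled above 0 and 13 below, and with IGF1 7 above and 16 below.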

How the data were processed

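Expression was measured by RNA sequencing in 9 samples, grouped by their titles. The authors deposited whole-number read counts for each gene, not normalized. Per the submitters' processing notes, the authors used STAR, HTSeq and DESeq with the rn5 build; versions and any use of strand are not given in the sources used here, so reads of overlapping genes cannot be told apart. The counts were filtered with filterByExpr (minimum count 10, minimum total count 15; 11873 genes, 99.99% of counts), scaled by TMM and fitted with edgeR 4.0.16 (R 4.3.3) by robust quasi-likelihood, with group as the factor and all 9 samples in the fit. Pairs of groups were compared by the quasi-likelihood F test, adjusted by Benjamini-Hochberg over all genes tested, threshold 0.05. SE is the absolute log2 fold change over the square root of F. Levels are CPM scaled by TMM and are not compared between genes, since transcript lengths were not used.

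The 9 members and all lists were chosen with earlier results of these data known. From each related list and comparison, up to 4 called genes could be named (the 2 largest rises and 2 largest falls, with a group mean of 1 CPM or more). Genes alike to a member were the 3 with the highest r among genes with a mean of at least 5 CPM (log2 CPM, prior count 2). Genes named outside this rule (Kdr, Tek, Cdh5, Cldn5, Pecam1, Kng2, Klkb1, Kng1, Kng1l1, Klk1, Agtr1b, Mrgprd, Cma1, Agtr2, Edn2, Edn3, Kel, Gnaq, Gna11) were chosen after their values were seen, and some genes that the rule names are not reported here. The IGF1 values of Pcsk5 and Pcsk6 were also given outside that rule. The scripts were tested on simulated data. Alternatives were DESeq2 1.42.0, other scalings and filters, fits of 2 groups, a replicate block and leaving out each sample.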

Additional observations from a re-analysis of the deposited data

How the results depend on the processing

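Over the alternatives run, calls of Bdkrb2 and Edn1 depended on the setting, together with 1 gain for Agt. Bdkrb2 with IGF1 against vehicle was log2 1.41 over all samples and ran from -1.05 (without IGF1 replicate 1) to 1.97 when each sample was left out. Its call between phenylephrine and IGF1 was lost when only these groups were fitted (log2 3.69), and DESeq2 gave no p-value for it in any comparison. Its fold change with phenylephrine against vehicle ran from 5.04 to 5.15 when each sample was left out. With phenylephrine, 2 members were higher, Edn1 included, in the fit of 2 groups and with the replicate block, and 1 to 2 when each sample was left out. DESeq2 also called Edn1 (log2 0.28). Agt was called lower with phenylephrine (log2 -0.66) only with scaling by library size.

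Scaling by library size only gave 1751 genes higher and 5696 lower with phenylephrine, and 2132 higher against IGF1. The share of higher genes among calls was 23.5% with phenylephrine (49.1% with TMM), 36.0% with IGF1 (51.3% with TMM) and 32.8% between the stimuli (49.9% with TMM). Of 52 related genes tested, that scaling gave 5 higher and 23 lower with phenylephrine, beside 1751 and 5696 of all 11873 genes tested. It gave 4 related genes higher with IGF1, where 5645 of all genes were called and 36.0% of those were higher. It gave 14 lower with phenylephrine against IGF1, where 6498 of all genes were called and 2132 of those were higher. It turned Grk6 with phenylephrine to -0.0096 and Ctsd between the stimuli to -0.0025 (log2). Leaving out 1 sample each gave 6 to 14 related genes lower between the stimuli (14 without IGF1 replicate 1). The numbers did not pair the samples: same-numbered samples had correlations of deviations of -0.08 to 0.02, and the replicate block gave no other change in members' calls. Over related genes, leaving out 1 sample ended 64 calls and added 32 over all comparisons and fits, and the other settings ended 26 with the direction kept, besides the calls of Grk6 and Ctsd that turned, and added 25. Gnaq was called with phenylephrine with the replicate block (log2 -0.20) and with library size only (log2 -0.38). The cause of these changes was not tested. Agt and Ednrb rest on the fewest reads over all 9 samples among the tested members, and Bdkrb1 cannot be assessed. In IGF1 replicates 2 and 3, Bdkrb2 had 28 and 53 reads, fewer than Ednrb in those samples (129 and 137).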
